A study of Mus musculus with 6 samples.

Results

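Foxn1 and 9 hair keratin genes, Krt31, Krt33a, Krt34, Krt35, Krt36, Krt81, Krt83, Krt85 and Krt86, were followed by their symbols through 6 RNA-seq libraries, and make up 10 of the 24393 genes listed in the files. They were picked because they were already known to be high with HOXA13 in these same libraries. Their difference between HOXA13 and CONTROL is therefore a description, with no test. The study compared 3 CONTROL and 3 HOXA13 libraries of KH2 mouse embryonic stem cells (strain labelled C57/BL/6) to ask how gene activity changes when HOXA13, a posterior homeobox transcription factor, is switched on. All cells were driven towards endoderm for 6 days with Noggin, CHIR, Activin-A and basic Fibroblast Growth Factor on M15 cells, a feeder line of mesodermal origin. In the HOXA13 group a doxycycline-inducible, FLAG-tagged human HOXA13 was switched on from day 4 with doxycycline at 1.25 µg/ml. The CXCR4+ E-cadherin+ fraction was taken by cell sorting on day 6 and kept with doxycycline for a further day before RNA was taken. The protocol is the same text for every sample, so whether the CONTROL cells also received doxycycline is not given in the sources used here. The study's methods describe the replicates as selected from targeted clones, so differences between clones are part of the spread between libraries.

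Hair keratins are the structural proteins of the hair shaft. They are intermediate filament proteins that form only as pairs of an acidic type I chain (here Krt31, Krt33a, Krt34, Krt35 and Krt36) and a basic type II chain (here Krt81, Krt83, Krt85 and Krt86), and they are cross-linked in the shaft by keratin-associated proteins. Foxn1 is the forkhead transcription factor lost in nude mice. It is needed for hair keratin expression in the hair matrix and for the thymic epithelium, which is of endodermal origin. In skin, another HOX protein of the same paralogue group as HOXA13, Hoxc13, is a known regulator of hair keratin genes and of Foxn1.

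The type I and the type II genes sit in separate clusters, and the stretches in front of their annotated starts are shown here because the genes were high in the same libraries. In the GENCODE M1 annotation of mm9 (NCBIM37), Krt33a (99872509 to 99877526), Krt34 (99898661 to 99902868), Krt31 (99907960 to 99911865), Krt35 (99953506 to 99957555) and Krt36 (99963321 to 99966940) lie on the minus strand of chromosome 11. Krt83 (101261921 to 101269235) and Krt81 (101289492 to 101294196) lie on the minus strand of chromosome 15, and Krt86 (101303909 to 101310414) on its plus strand. Foxn1 lies on chromosome 11 as well (78171079 to 78200060, minus strand), far outside the keratin cluster. None of these genes overlaps another annotated gene. For the 8 annotated hair keratins the 200 bases before the start are printed from 5′ to 3′ on the gene's own strand, with capitals for TTTATG or TTTANGNG on either strand, AT-rich letters of the kind that HOX13 proteins bind. A TTTATG followed by any base and a G is a match to both.
Krt31 (chr11:99911866-99912065, minus strand): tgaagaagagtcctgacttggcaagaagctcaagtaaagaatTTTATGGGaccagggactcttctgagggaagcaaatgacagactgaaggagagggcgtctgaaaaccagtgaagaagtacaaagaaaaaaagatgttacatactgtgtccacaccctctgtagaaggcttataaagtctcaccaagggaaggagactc
Krt33a (chr11:99877527-99877726, minus strand): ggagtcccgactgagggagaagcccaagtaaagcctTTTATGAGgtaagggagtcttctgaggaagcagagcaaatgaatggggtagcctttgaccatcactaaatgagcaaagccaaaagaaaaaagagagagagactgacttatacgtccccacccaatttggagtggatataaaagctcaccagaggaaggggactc
Krt34 (chr11:99902869-99903068, minus strand): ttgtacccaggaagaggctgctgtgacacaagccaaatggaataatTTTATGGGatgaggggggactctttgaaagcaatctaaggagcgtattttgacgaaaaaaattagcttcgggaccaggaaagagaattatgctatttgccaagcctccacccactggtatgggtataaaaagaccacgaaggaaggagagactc
Krt35 (chr11:99957556-99957755, minus strand): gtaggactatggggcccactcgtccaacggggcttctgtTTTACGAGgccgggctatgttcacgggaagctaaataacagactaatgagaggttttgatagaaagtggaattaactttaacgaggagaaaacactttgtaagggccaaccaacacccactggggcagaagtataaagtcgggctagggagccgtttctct
Krt36 (chr11:99966941-99967140, minus strand): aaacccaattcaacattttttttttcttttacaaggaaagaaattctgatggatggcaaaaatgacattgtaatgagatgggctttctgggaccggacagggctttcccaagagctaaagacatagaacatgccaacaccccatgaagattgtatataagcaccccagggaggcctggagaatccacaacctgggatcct
Krt81 (chr15:101294197-101294396, minus strand): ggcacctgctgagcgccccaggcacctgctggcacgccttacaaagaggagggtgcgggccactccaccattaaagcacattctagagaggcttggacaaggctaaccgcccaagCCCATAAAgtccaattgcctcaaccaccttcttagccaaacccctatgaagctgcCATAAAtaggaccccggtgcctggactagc
Krt83 (chr15:101269236-101269435, minus strand): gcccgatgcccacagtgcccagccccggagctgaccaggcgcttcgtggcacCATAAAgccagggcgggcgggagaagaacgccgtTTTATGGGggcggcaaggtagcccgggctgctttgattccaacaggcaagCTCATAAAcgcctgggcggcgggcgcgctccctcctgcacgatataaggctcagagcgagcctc
Krt86 (chr15:101303709-101303908, plus strand): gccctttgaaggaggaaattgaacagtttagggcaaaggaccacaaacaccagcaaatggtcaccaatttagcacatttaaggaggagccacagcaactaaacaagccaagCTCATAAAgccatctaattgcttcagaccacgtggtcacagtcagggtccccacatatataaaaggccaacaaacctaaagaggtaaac

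TTTATG, or its reverse complement CATAAA, was in the windows of 6 of the 8 annotated hair keratins, against 8.04% of all 22120 windows of this length. TTTANGNG, or its reverse complement CNCNTAAA, was in 7 of the 8, against 5.99% of all windows. Krt31, Krt33a and Krt34 had a match to both at 158, 164 and 154 bases before the start, Krt35 had a TTTANGNG match 161 bases before it, and Krt36 had neither. In the type II genes the matches were spread more widely, with TTTATG at 148, 114 and 62 bases before the start in Krt83, at 83 and 30 in Krt81 and at 87 in Krt86. The same letters were also in front of the other hair shaft keratins, which had at most 24 counts in any library, with TTTATG in 5 and TTTANGNG in 4 of the 6 that were listed. TATAAA, the TATA box, was in 5 of the 8 windows and in 9.93% of all. GACGC, the core letters that FOXN1 binds, was in 1 of the 8 (Krt31) and in 23.1% of all windows, and the Foxn1 window, not printed, held none of these 4 motifs. Most of the 8 keratins share stretches of transcript sequence with others of their type, so their windows cannot be taken as independent of one another. The motifs were chosen after the sequences and levels were known, and a match is a description of letters, not a bound site.

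The libraries held 12279884 to 17331638 counts over genes. A floor of 3 counts stood at 0.176 to 0.240 CPM, the level used throughout (counts relative to the library total after TMM scaling, the trimmed mean of M-values). A row under ENSG00000106031, the gene identifier of human HOXA13, is called the human identifier row here, as the files pair it with no symbol. It had no count in any CONTROL library and 2497, 7666 and 6572 counts in HOXA13 replicates 1, 2 and 3. Mouse Hoxa13 stayed low everywhere, at 10, 0 and 1 counts in CONTROL and 0, 5 and 1 in HOXA13. The summed level of 11 endoderm markers was 274 to 1741 CPM in CONTROL and 2002 to 2206 CPM in HOXA13. Most of it was Cdh1 and Epcam, adhesion genes of epithelia in general, of which Cdh1 encodes the E-cadherin used in the sort. The other 9 summed to 56.9 to 75.4 CPM in CONTROL and 44.0 to 71.9 CPM in HOXA13. Among them Gata4 stood at 16.5 to 30.9 CPM in CONTROL and 13.1 to 31.9 CPM in HOXA13. Sox17 was low, at 0.975 to 4.32 and 1.64 to 4.84 CPM, and Cer1 had no count. Cxcr4, which encodes the other sorted protein, was at 2.25 to 5.04 and 4.12 to 11.3 CPM. These single markers were named after their values were seen. Of the 11, 9 were tested and none passed the threshold in edgeR or DESeq2. In edgeR 1 (Cdh1, named after its value was seen) was higher at an unadjusted p under 0.05, against 8.05% of all tested genes. The sum of 8 pluripotency markers was 113 to 1254 and 395 to 630 CPM. CONTROL replicate 2 gave the highest CONTROL value of the 11-marker and of the pluripotency sum. Fewer cells of a type and less RNA per cell cannot be told apart in such bulk samples.

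Foxn1, the regulator of the group, was low in CONTROL and present in every HOXA13 library. CONTROL replicates 1, 2 and 3 gave 26, 15 and 36 Foxn1 counts, and the HOXA13 libraries gave 386, 1413 and 2041 in the same order. On the CPM scale these were 1.84, 1.20 and 2.70 against 29.7, 82.8 and 124, so the groups did not overlap. The HOXA13 mean of 78.7 ± 47.2 CPM (SD, n = 3) was 41.1 times the CONTROL mean, and the fitted log2 fold change was 5.35 (SE 0.60). Foxn1 was the only one of the 10 genes with a count in each of the 6 libraries.

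Of the 9 hair keratins, 8 had no count at all in CONTROL. The exception was Krt36, with 15 counts in CONTROL replicate 2 and none in the others. Those 15 were all the hair keratin counts among the 39422603 counts of the 3 CONTROL libraries. A count of 0 in that total allows a share of up to 7.61e-06%. In HOXA13, 6 of the 9 had a count in every library, while Krt35, Krt85 and Krt86 had none in replicate 1.

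**Figure D1:**
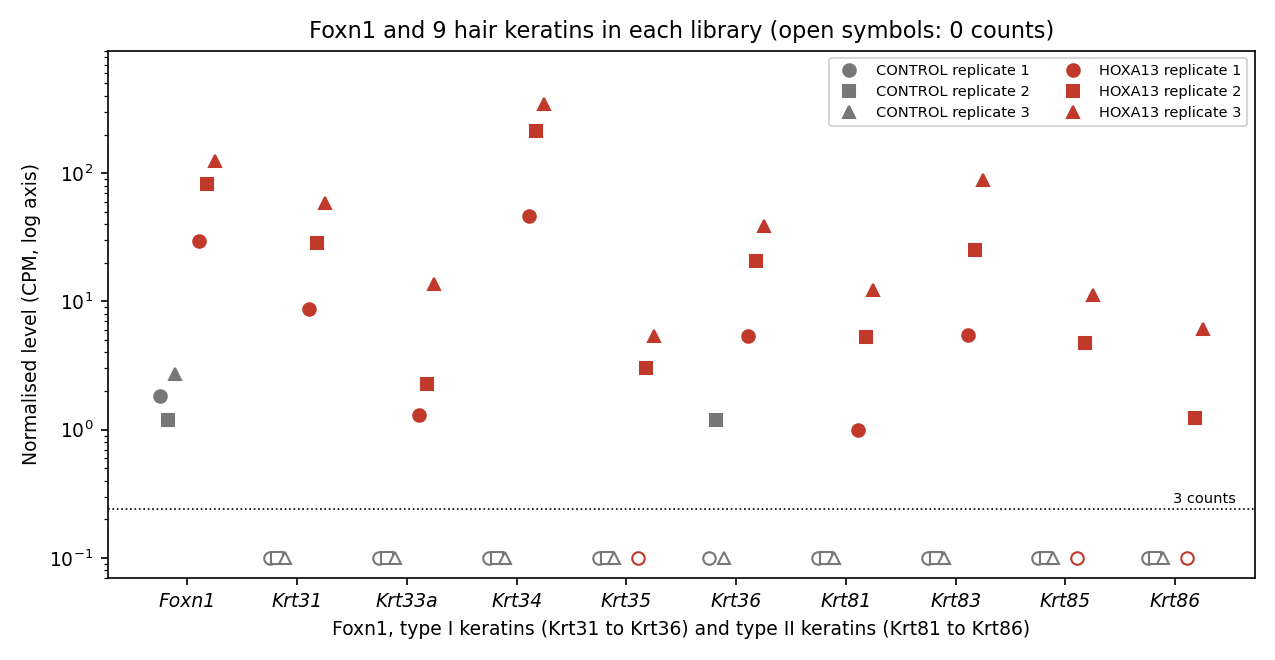
Normalised level (CPM, log axis) of Foxn1 and the 9 hair keratins in each library, with CONTROL in grey and HOXA13 in red, and with open symbols at the bottom for 0 counts. The dotted line is the highest floor of 3 counts, 0.240 CPM. HOXA13 replicate 1 is the lowest and replicate 3 the highest red symbol for each of the 10 genes.

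Krt34 was the most abundant of the type I keratins, with 601, 3635 and 5720 counts in HOXA13 replicates 1, 2 and 3. This was 46.2, 213 and 347 CPM, a mean of 202 ± 151 (SD, n = 3) and at least 842-fold above the CONTROL floor. Krt31, a keratin of the hair cortex, had 114, 485 and 965 counts, or 8.76, 28.4 and 58.5 CPM, and was at least 133-fold higher. For both genes every HOXA13 library lay far above the floor. Krt36 had 70, 350 and 640 counts in HOXA13, or 5.38, 20.5 and 38.8 CPM, against 1.20 CPM in CONTROL replicate 2. Its mean of 21.6 ± 16.7 CPM was 53.9 times the CONTROL mean, a ratio that rests on that 1 CONTROL library. The fitted log2 fold change was 5.77 (SE 1.34), and 11.32 without CONTROL replicate 2. The remaining CONTROL libraries had no Krt36 count, so the size of that second value is not a measured ratio.

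Krt33a, a close relative of Krt31 and Krt34, was lower and rested mainly on 1 library. Its counts in HOXA13 were 17, 39 and 226, or 1.31, 2.28 and 13.7 CPM, at least 24.0-fold higher on the mean. Krt35, which appears early in the differentiating hair matrix and cuticle, had 0, 52 and 88 counts and reached 3.05 and 5.34 CPM in replicates 2 and 3. Its mean was at least 11.6-fold above the floor, although replicate 1 itself, with a floor of 0.231 CPM, could not be told apart from CONTROL.

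Among the type II keratins Krt83 led, with 71, 432 and 1457 counts in HOXA13 replicates 1, 2 and 3. Its levels were 5.46, 25.3 and 88.3 CPM, a mean of 39.7 ± 43.3 (SD, n = 3) and at least 166-fold higher than CONTROL. Krt81 had 13, 90 and 204 counts, or 1.00, 5.27 and 12.4 CPM, and was at least 25.9-fold higher. Both were present in all 3 HOXA13 libraries. Krt85, the early type II partner of Krt35 in the hair matrix, had 0, 81 and 186 counts, or 4.74 and 11.3 CPM in replicates 2 and 3, at least 22.3-fold higher on the mean. Krt86 had 0, 21 and 100 counts, or 1.23 and 6.06 CPM in the same libraries, at least 10.1-fold higher. All of these folds lean on HOXA13 replicate 3. Without it the lower bounds were 540-fold for Krt34, 77.5 for Krt31, 64.1 for Krt83, 13.1 for Krt81, 9.89 for Krt85, 7.49 for Krt33a, 6.35 for Krt35 and 2.56 for Krt86, while Krt36 was 32.4 times and Foxn1 29.4 times the CONTROL mean. In HOXA13 replicates 2 and 3 each of the 9 keratins had counts, so the missing counts of Krt35, Krt85 and Krt86 were all in replicate 1.

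In edgeR's quasi-likelihood test across 13600 genes, 7 of the 10 genes passed the filter on low counts, and 3 (Foxn1, Krt31 and Krt34) passed the threshold as higher, where 0.265% of all tested genes did and 0.0441% passed as lower. DESeq2 called 7 of the 10, against a background of 3.13%, and edgeR without CONTROL replicate 2 also called 7, against 7.92%. With the other libraries left out singly, edgeR called 2 without HOXA13 replicate 1. It called 0 without CONTROL replicate 1 or 3 or HOXA13 replicate 2 or 3, and 0 with the replicate number as a block. Over all genes these fits called 7 without HOXA13 replicate 1, 1 without CONTROL replicate 1 and 0 in the others. Few genes of any kind were thus called in them. All HOXA13 libraries lay above all CONTROL libraries for 7 of the 10, which held for 11.5% of the genes tested. Nothing is read from these counts, since the genes were chosen on this contrast.

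Set per kilobase of annotated exon, Krt34 was the most abundant in each of the 3 HOXA13 libraries, with a mean of 126 ± 93.6 CPM per kb (SD, n = 3). Foxn1 (24.5 ± 14.7), Krt83 (21.5 ± 23.4), Krt31 (20.2 ± 15.8) and Krt36 (12.9 ± 10.0) followed on the mean. Foxn1 lay above Krt31, and Krt31 above Krt36, in each of the 3 libraries, although the SDs over libraries overlap. Krt83 had no fixed place among them, as it was below Krt36 in replicate 1 and above all but Krt34 in replicate 3. Krt81 (3.35 ± 3.09), Krt33a (2.79 ± 3.34), Krt86 (1.24 ± 1.64) and Krt35 (1.17 ± 1.12) were lower than Krt36 in every HOXA13 library and overlapped among themselves. Krt85 was not placed in this order.

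The type I chains outweighed the type II chains in each HOXA13 library. Type I genes summed to 61.6, 267 and 463 CPM in replicates 1, 2 and 3 and type II genes to 6.46, 36.6 and 118 CPM. The type I share of the hair keratin counts was 90.5% (95% Wilson interval 88.4 to 92.3) in replicate 1, 88.0% (87.1 to 88.8) in replicate 2 and 79.7% (78.9 to 80.5) in replicate 3, and these intervals cover counting error only. The mean was 86.1 ± 5.66% (SD, n = 3). The share was lowest in replicate 3, the library with the most hair keratin. Per exon length, with Krt85 left out, it was 91.6%, 90.6% and 83.2%.

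A single gene carried most of each type. Krt34 made up 74.9% to 79.7% of the type I counts, and Krt83 69.2% to 84.5% of the type II counts. Without Krt34 the type I share was 70.5%, 59.7% and 49.6%, so in replicate 3 the remaining type I genes and the type II genes were about level. The 9 genes together took 0.00679%, 0.0299% and 0.0565% of the counts of HOXA13 replicates 1, 2 and 3.

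**Figure D2:**
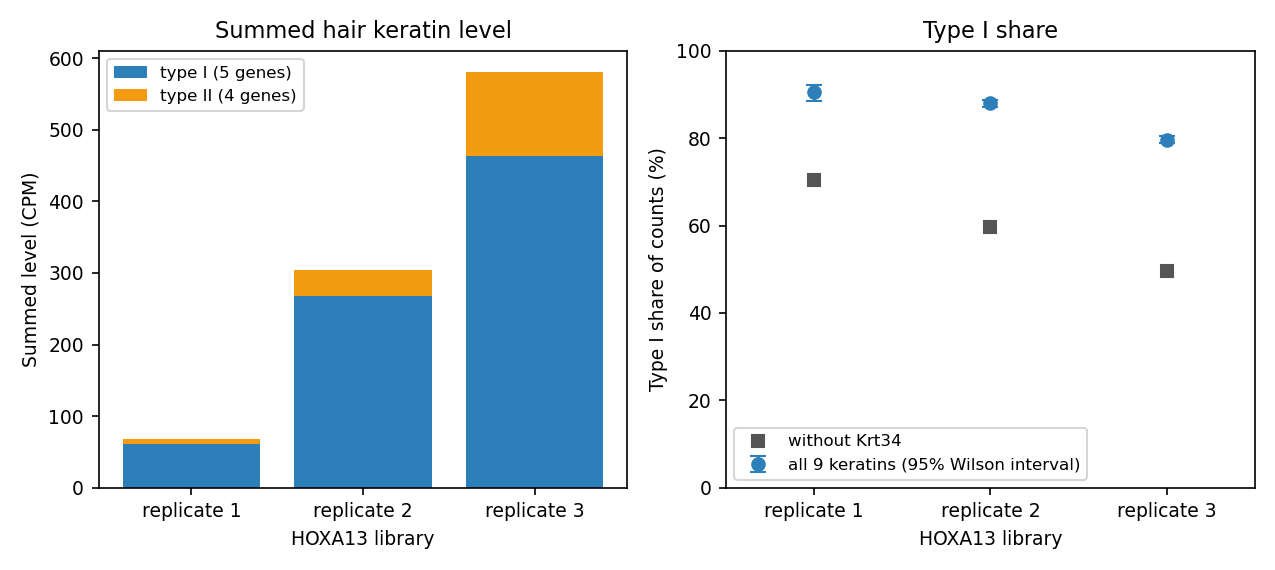
Summed level of the type I (blue) and type II (orange) hair keratins in CPM in each HOXA13 library on the left, and the type I share of their counts in percent on the right, with 95% Wilson intervals for all 9 genes and squares for the share without Krt34. The type I share is 90.5%, 88.0% and 79.7% in replicates 1, 2 and 3.

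The hair keratins varied more between the HOXA13 libraries than Foxn1 did, and Foxn1 more than the human identifier row. The SD was 39.3% of the mean for the human identifier row, 59.9% for Foxn1, and from 74.6% (Krt34) to 132% (Krt86) for the keratins. The human identifier row stood at 192, 449 and 398 CPM in replicates 1, 2 and 3, so that replicate 3 had 0.887 times the level of replicate 2. In the same pair of libraries Foxn1 was 1.50 times, the type I sum 1.73 times and the type II sum 3.23 times as high in replicate 3. The order of the libraries by hair keratin level was therefore not their order by the human identifier row.

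Against replicate 1, replicate 3 had 2.08 times the human identifier row, 4.17 times the Foxn1, 7.51 times the type I sum and 18.3 times the type II sum. Single keratins spanned 6.68 times for Krt31, 7.21 for Krt36, 7.51 for Krt34, 10.5 for Krt33a, 12.4 for Krt81 and 16.2 for Krt83. Per unit of the human identifier row, the 9 keratins came to 0.355, 0.676 and 1.46 CPM, and Foxn1 to 0.155, 0.184 and 0.311 CPM. Per unit of Foxn1, the keratins came to 2.30, 3.67 and 4.70 CPM. HOXA13 replicate 1 was lowest and replicate 3 highest for 10 of the 10 genes, an order seen in 18.7% of all tested genes. With 3 libraries no correlation between these levels was computed. Replicate 1 was also the shallowest HOXA13 library, with 13043731 counts against 17331638 and 16965187. It had the highest pluripotency marker sum of the HOXA13 libraries, with 630 CPM against 416 in replicate 2 and 395 in replicate 3. The part of depth, clone or cell composition in these differences was not tested.

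**Figure D3:**
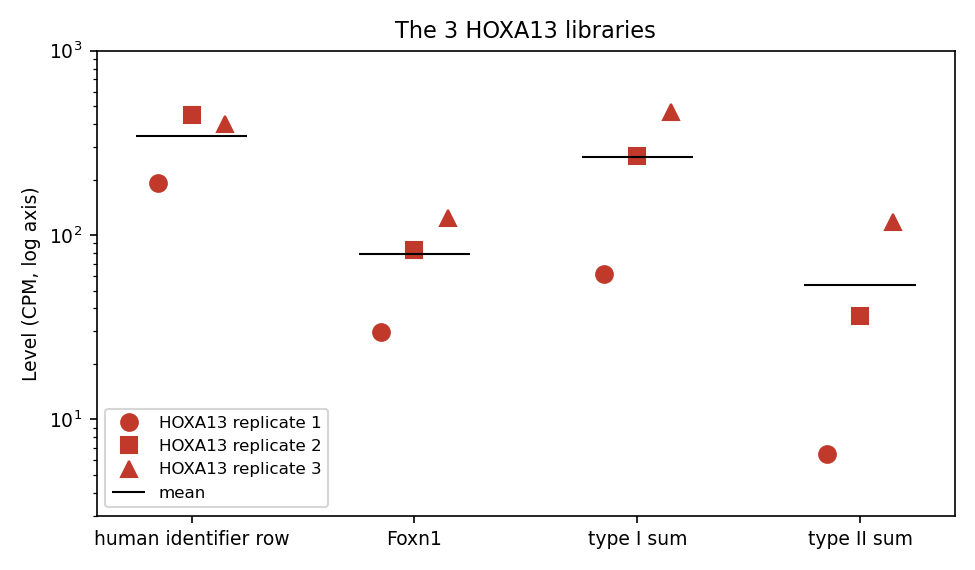
Levels (CPM, log axis) of the human identifier row, Foxn1, the summed type I and the summed type II hair keratins in the 3 HOXA13 libraries, with the mean as a line. Replicate 2 has the highest human identifier row (449 CPM), while replicate 3 is highest for Foxn1 and both keratin sums.

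The other keratins of the hair shaft stayed at low counts in both groups. Of 7 listed, 6 were in the files and none passed edgeR's filter on low counts. DESeq2 fitted 5 and called none, with 1 at an unadjusted p under 0.05, as were 2267 of the 17697 genes it fitted. It gave Krt39, Krt40 and Krt84 no adjusted p, so they could not be called. The DESeq2 adjusted p was 0.997 for Krt32 and 0.230 for Krt33b. Krt32, a cuticle keratin, had 0, 0 and 21 counts in CONTROL and 0, 3 and 22 in HOXA13. Krt33b, which lies between Krt33a and Krt34, had 0, 0 and 1 counts against 22, 0 and 24. Krt39 (0, 11 and 3), Krt40 (0, 0 and 4) and Krt84 (0, 18 and 8) had counts in HOXA13 only, and Krt82, a cuticle keratin, had none anywhere. Their summed level was 0 to 1.65 CPM in CONTROL and 1.69 to 3.70 CPM in HOXA13.

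Keratin-associated proteins, which embed the keratin filaments of the shaft, gave summed levels that overlapped between the groups. Of 53 listed, 25 had no count in any library, 7 were tested and none passed the threshold in edgeR or DESeq2, with 1 (Krtap1-5, named after its value was seen) higher at an unadjusted p under 0.05, where 8.05% of all tested genes were. The median log2 fold change of the 7 was -0.16, against -0.01 for all tested genes. Their summed level was 17.3 to 55.8 CPM in CONTROL and 34.2 to 41.6 CPM in HOXA13. Krtap7-1, not tested and named after its values were seen, had no count in CONTROL and 13, 8 and 12 counts in HOXA13.

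Genes of the inner root sheath, the layer that moulds the growing shaft, showed no called change. Of 16 listed, 4 were tested and none passed in edgeR or DESeq2, with 2 higher at an unadjusted p under 0.05 (8.05% of all tested genes were) and a median log2 fold change of 0.54. Krt27 had 0, 11 and 8 counts in CONTROL and 7, 128 and 146 in HOXA13 (log2 fold change 3.50, SE 1.35, edgeR adjusted p = 0.298). Trichohyalin (Tchh), which hardens the sheath, had 381, 593 and 369 counts against 774, 1094 and 1079 (log2 fold change 0.89, SE 0.26, edgeR adjusted p = 0.178). These 2 genes were named after their values were seen.

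Among the regulators of hair follicle differentiation, Hoxc13, unlike Foxn1, had a lower mean in HOXA13. It had 210, 58 and 302 counts in CONTROL and 29, 158 and 100 in HOXA13, a log2 fold change of -1.26 (SE 0.67, edgeR adjusted p = 0.460), and the groups overlapped. Of 25 regulators, 22 were tested. None passed the threshold in edgeR, with 7 higher and 2 lower (Lef1 and Foxq1, named after their values were seen) at an unadjusted p under 0.05, against 8.05% and 6.02% of all tested genes. DESeq2 called 5 higher and 1 lower, against 3.13% and 1.95% of all its genes. The largest of the fitted changes, named after the values were seen, were in the epithelial transcription factors Grhl1 (2.97, SE 0.49, edgeR adjusted p = 0.0619), Dlx3 (2.08, SE 0.43, edgeR adjusted p = 0.0999) and Ovol1 (2.05, SE 0.46, edgeR adjusted p = 0.111), all on the log2 scale and all without overlap between the groups. Lef1, the Wnt effector of the hair matrix and also named after its value was seen, had a log2 fold change of -1.14 (SE 0.25, edgeR adjusted p = 0.108).

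Epidermal and simple epithelial keratins were measured beside the hair keratins. Of 20 epidermal and stratified keratins in the files, 8 were tested and none passed in edgeR, with 2 (Krt15 and Krt17) higher at an unadjusted p under 0.05, against 8.05% of all tested genes, and 1 (Krt15) called higher by DESeq2, against 3.13%. The fitted change was above 0 in all 8, with a median of 0.81, and in 48.8% of all tested genes. Krt15, a basal keratin, had 26, 137 and 17 counts in CONTROL and 262, 754 and 1533 in HOXA13 (log2 fold change 3.49, SE 0.89, edgeR adjusted p = 0.146). Of the 7 simple epithelial keratins, the kind that endoderm makes, 6 were tested and none passed in edgeR, with 3 (Krt8, Krt19 and Krt20) higher at an unadjusted p under 0.05, against 8.05% of all tested genes, and 2 (Krt19 and Krt20) called by DESeq2, against 3.13%. These genes were also named after their values were seen. Their median log2 fold change was 1.14, and their summed level was 1356 to 3196 CPM in CONTROL and 3306 to 5264 CPM in HOXA13. The part of epithelial keratins or of the number of epithelial cells in the hair keratin levels was not tested.

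**Figure D4:**
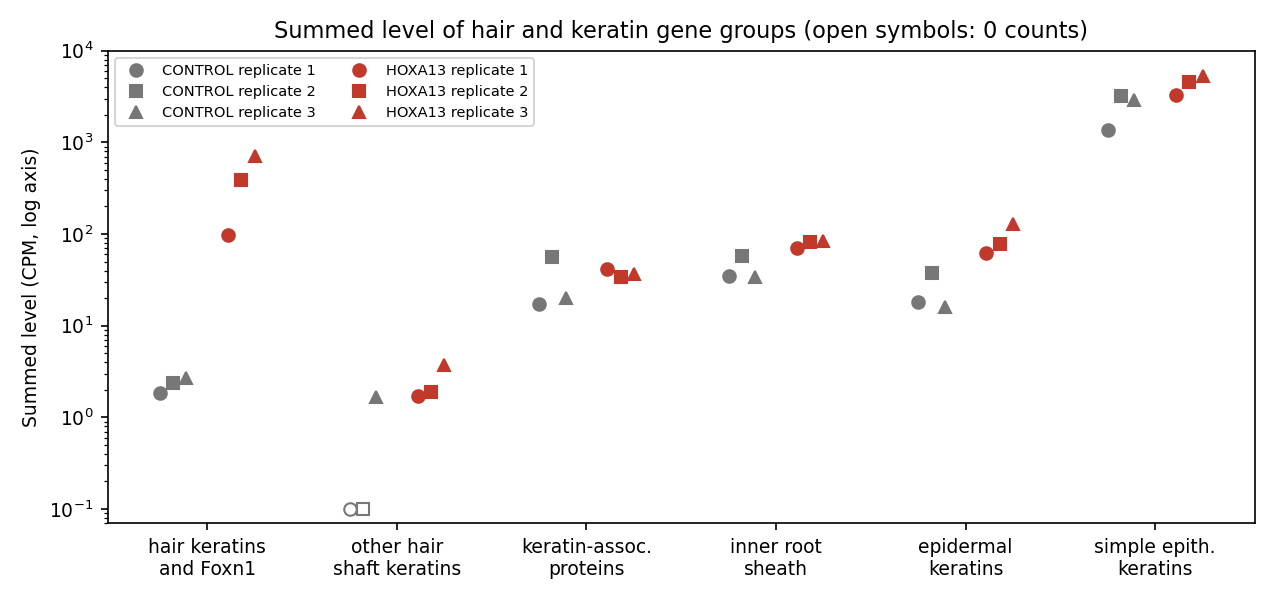
Summed level (CPM, log axis) of Foxn1 with the 9 hair keratins, and of 5 other gene groups, in each library, with CONTROL in grey and HOXA13 in red. The hair keratins with Foxn1 are at 1.84 to 2.70 CPM in CONTROL and at 97.8 to 705 CPM in HOXA13, and the groups also do not overlap for the sums of the other hair shaft keratins (0 to 1.65 against 1.69 to 3.70 CPM), inner root sheath genes (34.1 to 57.1 against 70.9 to 83.9 CPM), epidermal keratins (16.0 to 37.7 against 61.5 to 128 CPM) and simple epithelial keratins. The keratin-associated proteins overlap.

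Of 12 markers of the epidermal keratinocyte, 7 were tested. The fitted change was above 0 in all 7, with a median log2 fold change of 1.15, against 48.8% of all tested genes above 0. None passed the threshold in edgeR, with 3 (Krt15, Dsg3 and Itgb4) higher at an unadjusted p under 0.05, against 8.05% of all tested genes, and DESeq2 called 1 (Krt15), against 3.13%. The sum of the 12 was 50.9 to 177 CPM in CONTROL and 229 to 337 CPM in HOXA13. Trp63, which defines the keratinocyte lineage, had 1, 0 and 10 counts in CONTROL and 0, 3 and 0 in HOXA13, and Krt5 had 0, 4 and 1 against 14, 11 and 0. Krt1 had 0, 0 and 0 counts against 0, 9 and 0. In HOXA13 replicate 3, the library with the most hair keratin, these 3 were at 0 counts, whereas Krt15 (1533 counts) and Dsg3, a desmosomal cadherin of stratified epithelia (111 counts), were at their highest. The rest of the 12 had 3034 (Itgb4), 666 (Lor), 86 (Krt10), 70 (Krt14), 57 (Ivl), 5 (Col17a1) and 2 (Dsg1a) counts in that library. Dsg3 had 5, 13 and 6 counts in CONTROL and 13 and 30 in the other HOXA13 libraries. Single markers were named after their values were seen, and the part of such cells in the hair keratin levels was not tested. The sum of 9 markers of the mesodermal feeder cells was 57.6 to 77.1 CPM in CONTROL and 31.9 to 67.4 CPM in HOXA13, most of it Gata3, which is also among the hair regulators. Without Gata3 it was 15.5 to 23.6 and 7.28 to 12.6 CPM. The fitted change was below 0 in all 6 tested feeder markers, with a median log2 fold change of -0.71, and in 6961 of all 13600 tested genes. None of the 6 passed the threshold in edgeR or DESeq2. None was lower at an unadjusted p under 0.05 in edgeR, where 6.02% of all tested genes were.

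The hair keratins were compared with their neighbours in the genome. The type I cluster on chromosome 11 (99094075 to 100131185) holds 62 listed genes, of which 20 were tested. All HOXA13 libraries lay above all CONTROL libraries for 9 of them. These include the 4 tested hair keratins, which were chosen as high in HOXA13, so that part of the count was fixed. The others were 2 of 6 epidermal and stratified keratins, 2 of 3 simple epithelial keratins and 1 of 5 keratin-associated proteins, against 11.5% of all tested genes. The genes past the threshold were Krt31 and Krt34. The 5 type I hair keratins lie close together, with Krt33b and Krt32 among them, between the keratin-associated proteins (6 of 21 without a count in any library) and the epidermal keratins. The type II cluster on chromosome 15 (101177875 to 101862457) holds 28 listed genes. Of these 9 were tested, 4 had all HOXA13 libraries above CONTROL, and none passed the threshold in edgeR. Krt81 and Krt83 are among the 4, again fixed by their choice. The others were 1 of 3 simple epithelial keratins and 1 of 2 genes of no listed group, again against 11.5%. Next to Krt86 lies 5430421N21Rik (101315562 to 101321943, minus strand), with 0, 0 and 7 counts in CONTROL and 16, 285 and 661 in HOXA13. It was singled out after its values were seen and gets no test. The RefSeq table, of another build, gives 5430421N21Rik as an older name of both Krt83 and Krt86, and Krt83 both as a current symbol and as an older name of Krt87, so the current names of these genes are uncertain. With 5430421N21Rik counted as a type II chain the type I share became 88.9%, 83.4% and 74.5%.

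**Figure D5:**
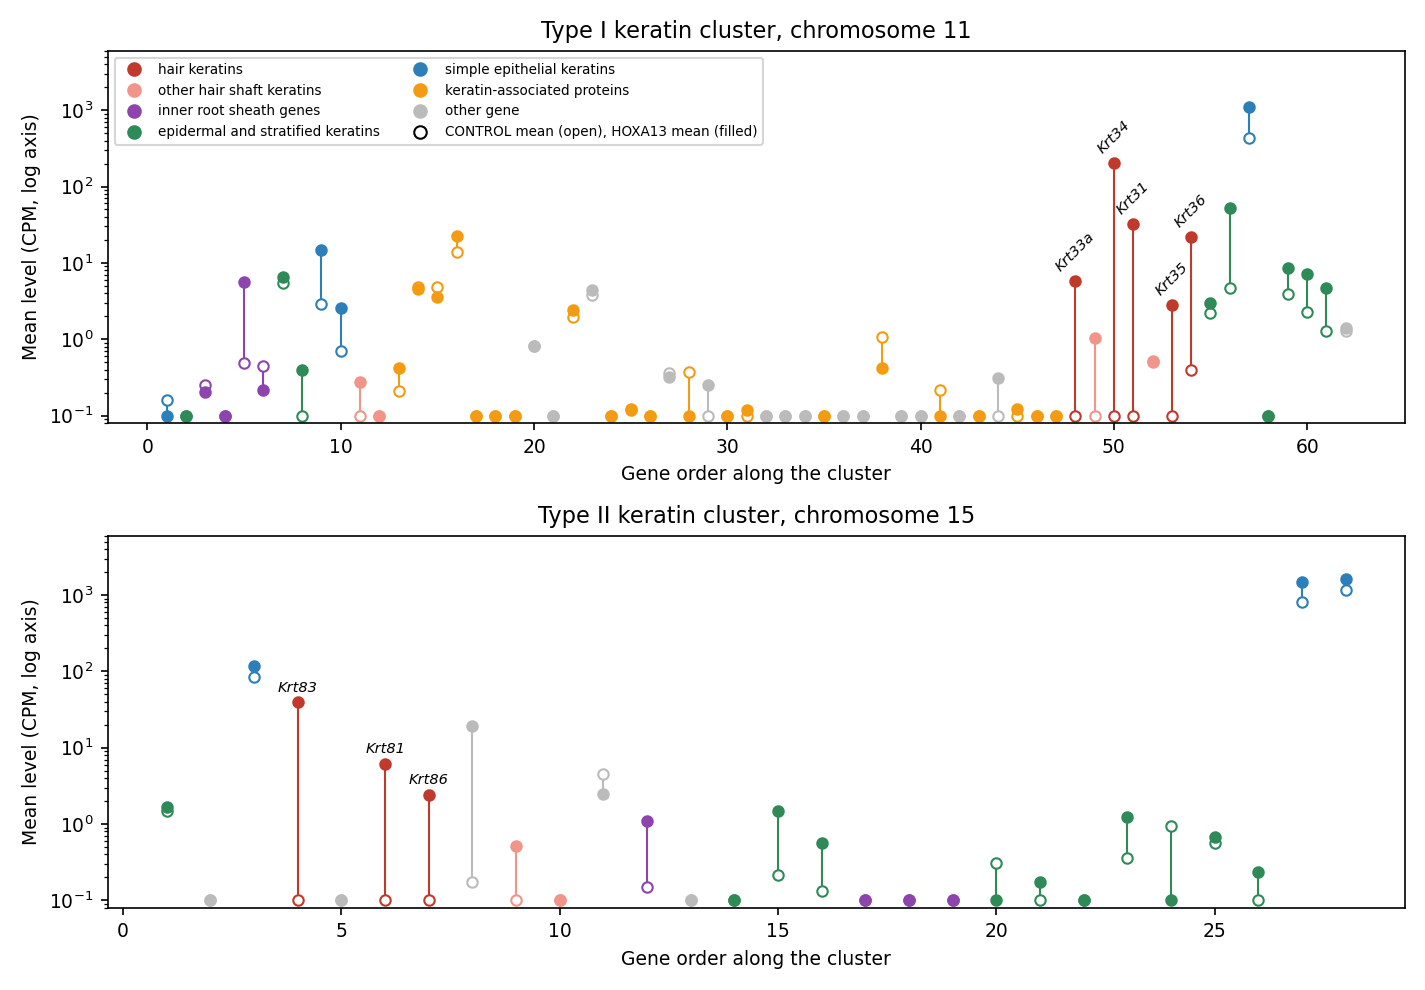
Mean level (CPM, log axis) of each listed gene in order along the type I and type II keratin clusters, with open circles for CONTROL and filled circles for HOXA13 (n = 3 each), coloured by gene group, and values under 0.1 CPM drawn at 0.1. The CONTROL means of the named hair keratins are at the bottom of the axis, except Krt36, and their HOXA13 means lie between 2.43 CPM (Krt86) and 202 CPM (Krt34).

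Some of the reads could have come from more than 1 of these genes. Of the 75-base stretches (the read length) in annotated transcripts, 35.2% in Krt81 and 33.5% in Krt86 also occur in another protein-coding gene, most often in each other, with 537 stretches in common. The share was 24.7% in Krt34, 19.1% in Krt31, 14.4% in Krt33a, 13.6% in Krt83 and 1.76% in Krt35. It was 0 in Krt36 and in Foxn1, which share none. The annotated type I genes shared stretches only with type I genes and the annotated type II genes only with type II genes, 5430421N21Rik among them, so counts within a type are uncertain. Krt34 and Krt83, which carried most of each type, differed in this share. The type I share of the counts could therefore also depend on how such reads were counted. Krt85 was not part of this comparison. How reads with several alignments were counted is not given in the sources used here.

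The genes most like the hair keratins were found by comparing each gene's distribution over the 6 libraries with that of the 9-keratin sum. The distance is the share of a gene's summed CPM that would have to move between libraries to match, and its median over the 13137 genes compared, those that passed the filter with a mean of 1 CPM or more, was 0.601. The keratins are part of the sum they are compared with, Krt34 most of all, so their nearness is partly fixed. Among the 10 genes it was 0.0226 for Krt31, 0.0272 for Krt36, 0.0380 for Krt34, 0.0545 for Krt81, 0.0976 for Foxn1, 0.133 for Krt83 and 0.187 for Krt33a. Krt35 (0.0726), Krt85 (0.0948) and Krt86 (0.222) did not pass the filter on low counts and were placed with the same formula only. The nearest other genes were Mt4 (0.0733), a metallothionein of stratified epithelia, Prr9 (0.0816) and 5430421N21Rik (0.0846), and these 3 were nearer than Foxn1. Next came Krt15 (0.127), Myzap (0.132), Atp12a (0.133), Klk15 (0.138) and Slc6a14 (0.139). The human identifier row was at 0.227. Mt4 had no count in CONTROL and 17, 47 and 82 counts in HOXA13, and Prr9 had 0, 0 and 10 against 4, 99 and 157, so both shared the order of the HOXA13 libraries with the hair keratins. The measure rests on 6 libraries that share their depth and group with the keratins, and it is given as a description.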

How the data were processed

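RNA was measured in 6 libraries, and group and replicate number were read from the sample titles. The authors deposited raw read counts per gene, made from directional poly-A libraries with 75-base reads on an Illumina sequencer. Per the submitters' processing notes, bcl2fastq 2.17, TopHat2 2.0.14, HTSeq 0.6.1p1 and build mm9 were used. Which annotation and strand option were used, and how multiply aligned reads were counted, is not given in the sources used here.

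Of 24393 listed genes, 6696 had no count. In R 4.3.3, filterByExpr (minimum count 10, minimum total 15) left 13600 genes, which were fitted with edgeR 4.0.16 (TMM, glmQLFit and glmQLFTest, group only, Benjamini-Hochberg threshold 0.05). The script was tested on simulated data. Standard errors came from the F statistic. Folds against CONTROL libraries at 0 are lower bounds against the highest CONTROL floor of 3 counts. Positions, exon lengths, 200-base windows and shared 75-base stretches came from GENCODE M1 and the mm9 genome, and current symbols from RefSeq (GRCm38.p6). Likeness was computed over genes averaging 1 CPM or more.

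The members and the gene lists were chosen with earlier results of these data known. Named are the members, the human identifier row, the other hair shaft keratins, list genes past the threshold with Hoxc13, the 8 nearest profiles and cluster neighbours past the threshold. Genes named outside this rule are marked in the text as named after their values were seen, apart from mouse Hoxa13, Epcam and Gata3. Epcam and Gata3 were named for their part in a sum, with their values seen. Replicates are described as biological replicates from targeted clones, so p-values measure the spread between them. Alternatives were DESeq2 1.42.0, RLE and upper-quartile scaling, no filter, a mean count of at least 50, the edgeR 4 method, a replicate block and leaving out each library.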

Additional observations from a re-analysis of the deposited data

How the results depend on the processing

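The direction of the fitted change of the 7 tested genes held under every alternative in which the gene was tested, while the calls did not. These genes were chosen as high in HOXA13, and Krt31, Krt33a, Krt34, Krt81 and Krt83 had no count in any CONTROL library. Their direction was therefore largely fixed beforehand, and nothing is read from it. The number past the threshold was 3 with all libraries. It was 7 with DESeq2, 7 with no filter and 1 with a mean count of at least 50, where fewer genes were tested. DESeq2 and no filter differed in Krt86 (DESeq2) and Krt36 (no filter). RLE scaling called 2, losing Krt31, and the edgeR 4 method 3, with Krt36 in place of Krt31. Leaving out single libraries gave 0 to 7, with 7 without CONTROL replicate 2 and 0 without CONTROL replicate 1, CONTROL replicate 3, HOXA13 replicate 2 or HOXA13 replicate 3. Same-numbered samples did not deviate together (correlations of -0.238, -0.302 and 0.120), 1 of the 6 samples correlated best with its own number, and the replicate block called 0. Hair regulators went from 0 to 6 with DESeq2, 1 with no filter, 1 with the edgeR 4 method and 0 to 7 without single libraries. Over all genes the calls went from 42 to 722 with DESeq2, 163 with no filter and 106 with the edgeR 4 method. Without CONTROL replicate 2 they went to 2006, so the hair regulator counts rose with those of all genes. The calls over all genes fell to 34 with RLE scaling, 40 with upper quartile scaling and 9 with a mean count of at least 50. They were 7 without HOXA13 replicate 1 and 1 without CONTROL replicate 1. With the replicate block, or without CONTROL replicate 3, HOXA13 replicate 2 or HOXA13 replicate 3, they were 0. Each lower count for the 7 tested genes thus stood beside a lower count over all genes. Epidermal and stratified keratins went from 0 to 1 with DESeq2 and 0 to 2 without single libraries, and simple epithelial keratins to 2, to 1 with no filter and 0 to 3. Inner root sheath genes gave 0 to 1 without single libraries. Keratin-associated proteins gave 0 under every alternative run. Other hair shaft keratins also gave 0, but none of them was fitted with RLE or upper quartile scaling, a mean count of at least 50, the edgeR 4 method, the block or without HOXA13 replicate 3, so those runs say nothing. In DESeq2, Krt39, Krt40 and Krt84 got no adjusted p and could not be called. The mean type I share of 86.1% became 60.0% without Krt34, and 83.8% to 89.2% without single HOXA13 libraries. An alternative that counts 5430421N21Rik as type II was chosen after seeing the data. Where calls changed with DESeq2, the filter or a left-out library, the cause was not tested. Krt35, Krt85 and Krt86 did not pass edgeR's filter with all libraries, though they were fitted by DESeq2, with no filter and in some fits that left out a library, and depth does not show whether they were silent in HOXA13 replicate 1.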

Other observations

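Of the 7708 genes without a count in any CONTROL library, the human identifier row had the highest mean level in HOXA13 (346 CPM), and Krt34, Krt83, Krt31, Krt81, Krt33a and Krt85 took the next 6 places. Mt4 followed (3.01 CPM), then Csta1, a member of the cystatin A family of protease inhibitors (2.80 CPM), Krt35, Sowaha (2.52 CPM) and Krt86. This ranking used the same contrast that chose the hair keratins, and Csta1 and Sowaha were named after their values were seen.

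Atp12a, a proton pump of the stomach and colon family of ATPases, and Klk15, a kallikrein protease, were among the profiles nearest to the hair keratins. Atp12a had 428, 1626 and 1997 counts in HOXA13, and in CONTROL it had 63 counts in replicate 2 and none in the others. Klk15 had 0, 0 and 2 counts in CONTROL and 74, 240 and 294 in HOXA13. These genes were chosen for their likeness to the keratin sum, so their difference between the groups is a description. Slc6a14, an amino acid transporter, had 0, 29 and 27 counts against 167, 416 and 651.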
